A study of Mus musculus with 6 samples.

Results

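Nitric oxide (NO) is made from arginine by NO synthases and can be added to the thiol of a cysteine, a modification called S-nitrosylation (SNO). The transcripts described here belong to 9 genes that make NO, protect its synthesis, or remove it again from thiols. They were chosen by name as the rows of the deposited mouse gene table called Nos3, Ddah1, Ddah2, Adh5, Akr1a1, Cbr1, Txn1, Txn2 and Txnrd2, 9 of 34745 genes. All 9 were found, and all 9 passed the filter on low counts. The study examined SNO in the liver after an overdose of acetaminophen (APAP), and the comparison asks whether the RNA of these enzymes differed between APAP and saline livers.

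Total RNA came from livers of mice labelled WT. The study names male C57BL/6J mice, 8 to 10 weeks old in the APAP experiments. Mice of the APAP group received a single intraperitoneal injection of 300 mg/kg APAP after 12 hours of fasting, and the liver was taken 12 hours later. Saline mice were fasted in the same way and injected with saline. Whole liver tissue was the source, with no sorting of cells named, so fewer cells of a type and less RNA per cell cannot be told apart. The samples are 3 livers per group, and 2 APAP libraries (replicates 1 and 3) and 3 saline libraries were analysed. The second APAP replicate was not analysed here. Columns of the other group are called WT1, WT2 and WT3 and were taken to be saline, since the remaining columns carry the name of APAP. The labels do not say that each library is a separate animal, so p-values measure the spread between these libraries.

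The libraries held between 13378445 and 15976339 counted reads. Albumin RNA (Alb), the defining hepatocyte transcript, took 6.56% to 11.3% of the counts. Levels are given as CPM (counts scaled to a fixed total per library) after edgeR's TMM normalization, in which 3 counts are worth between 0.176 and 0.269 CPM. The groups also differed in sex-linked transcripts. Xist lay between 0.764 and 1.73 CPM in APAP and between 289.6 and 914 CPM in saline, and the Y-linked Ddx3y was at 61.7 and 78.97 CPM in APAP with at most 1 count in any saline library. High Xist with almost no Ddx3y is the pattern of female tissue, and the reverse is that of male tissue. The study names male mice, so the sex of the saline livers is unresolved. Treatment and sex therefore cannot be told apart in any comparison given here, including those of genes on other chromosomes.

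Endothelial NO synthase, encoded by Nos3, works in the vessel lining and is inhibited by asymmetric dimethylarginine (ADMA). The dimethylarginine dimethylaminohydrolases encoded by Ddah1 and Ddah2 are linked to the breakdown of ADMA, with the liver a main site of Ddah1. NO groups are passed to glutathione, giving S-nitrosoglutathione (GSNO), which is destroyed by GSNO reductase (GSNOR, encoded by Adh5) and by the NADPH-dependent reductases of Akr1a1 and Cbr1. Thioredoxins remove NO directly from proteins and are recharged by thioredoxin reductases, one set in the cytosol (Txn1 and Txnrd1) and one in mitochondria (Txn2 and Txnrd2).

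The sequences in front of the start sites are shown for the 2 members with the lowest fitted fold changes, Ddah1 and Txnrd2, and for Txnrd1, the cytosolic partner of Txnrd2, whose values differed in the opposite direction. They are RefSeq promoter windows on GRCm38.p6, all on the plus strand and written 5′ to 3′, at chr3:145758442-145758674 for Ddah1, chr16:18426167-18426383 for Txnrd2 and chr10:82858956-82859205 for Txnrd1. Capitals mark a GC box (GGGCGG) in Txnrd2 and the core of the antioxidant response element (TGACNNNGC, read here on the other strand as GCNNNGTCA) in Txnrd1, where other motifs are not marked. Of the 3 windows searched for Txnrd1, the one shown is the only one with this core. Windows were also searched for other genes described below. Those of Cbr3, Srxn1, Prmt3 and Dynll1, higher in APAP, and of Ass1, Pts and Qdpr, lower in APAP, held no such core. No window was available for Gsr and Hsp90aa1, which were also higher. The Ddah1 window held none of the motifs searched. The windows of Ddah1 and Txnrd2 are shown up to the base before the deposited gene start.
Ddah1: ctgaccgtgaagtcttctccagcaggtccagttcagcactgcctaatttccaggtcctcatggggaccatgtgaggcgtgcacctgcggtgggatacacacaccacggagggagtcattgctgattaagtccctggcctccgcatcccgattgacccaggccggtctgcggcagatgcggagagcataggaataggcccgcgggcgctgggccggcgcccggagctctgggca
Txnrd2: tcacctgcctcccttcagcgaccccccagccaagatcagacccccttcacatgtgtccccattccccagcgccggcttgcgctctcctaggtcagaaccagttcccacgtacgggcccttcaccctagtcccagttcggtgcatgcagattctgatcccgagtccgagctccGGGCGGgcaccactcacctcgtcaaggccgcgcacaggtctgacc
Txnrd1: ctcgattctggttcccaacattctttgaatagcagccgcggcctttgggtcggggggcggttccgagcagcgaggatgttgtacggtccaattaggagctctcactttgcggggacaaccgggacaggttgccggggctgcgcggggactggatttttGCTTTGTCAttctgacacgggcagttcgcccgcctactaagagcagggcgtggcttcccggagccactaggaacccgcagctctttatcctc
The 250 bases before each start were searched on both strands, and windows existed for 8 of the 9 members, all but Nos3. The antioxidant response element core was found in 0 of the 8, compared with 10.2% of 32851 mouse windows. The GC box was found in 5 of the 8 (Ddah2, Adh5, Txn1, Txn2 and Txnrd2), compared with 32.7% of all windows. TATAAA was found before Adh5 and Txn1 (12.4% of windows), and CCAAT before Txn2 (33.8% of windows). For Adh5 it lay in a window at chr3:138436950-138437199, and the window just before the deposited gene start held none. The 8 members had 9 windows and counted if any window matched, whereas the shares are per window. These are matches of letters, and binding at them was not measured.

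Transcripts of the 9 enzymes lay below or within the saline range in most APAP libraries, and none passed the adjusted test. Of the 9 members, 0 rose and 0 fell at an adjusted p under 0.05 by edgeR's quasi-likelihood test, compared with 3.70% of 13734 tested genes that rose and 3.53% that fell (7.23% in all). By other tests on the same libraries, 1 member was lower at an adjusted p under 0.05 by edgeR's likelihood ratio test, 1 by its exact test and 2 by DESeq2. By the study's own thresholds, a fold change of at least 1.5 and p under 0.05, with p taken here without adjustment, 2 members were lower (Ddah1 and Txnrd2) and 0 higher, compared with 11.2% of all tested genes lower and 12.3% higher (23.5% in all). Fitted log2 fold changes were negative for 8 members and positive for Ddah2, with a median of -0.34, compared with 0.03 over all tested genes. In 4 members (44.4%), Ddah1, Adh5, Akr1a1 and Txnrd2, every APAP value was below every saline value, compared with 20.1% of tested genes that were lower without overlap, 24.0% that were higher and 44.1% in either direction. The lower direction depended on the scaling. With CPM by library size only, which raised the median log2 fold change of all genes to 0.42, Txnrd2 alone among the 9 was lower without overlap, Txn1 was higher without overlap (192 and 194 CPM in APAP, 129.6 to 161 CPM in saline), and 4 members had negative and 5 positive fold changes.

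**Figure D1:**
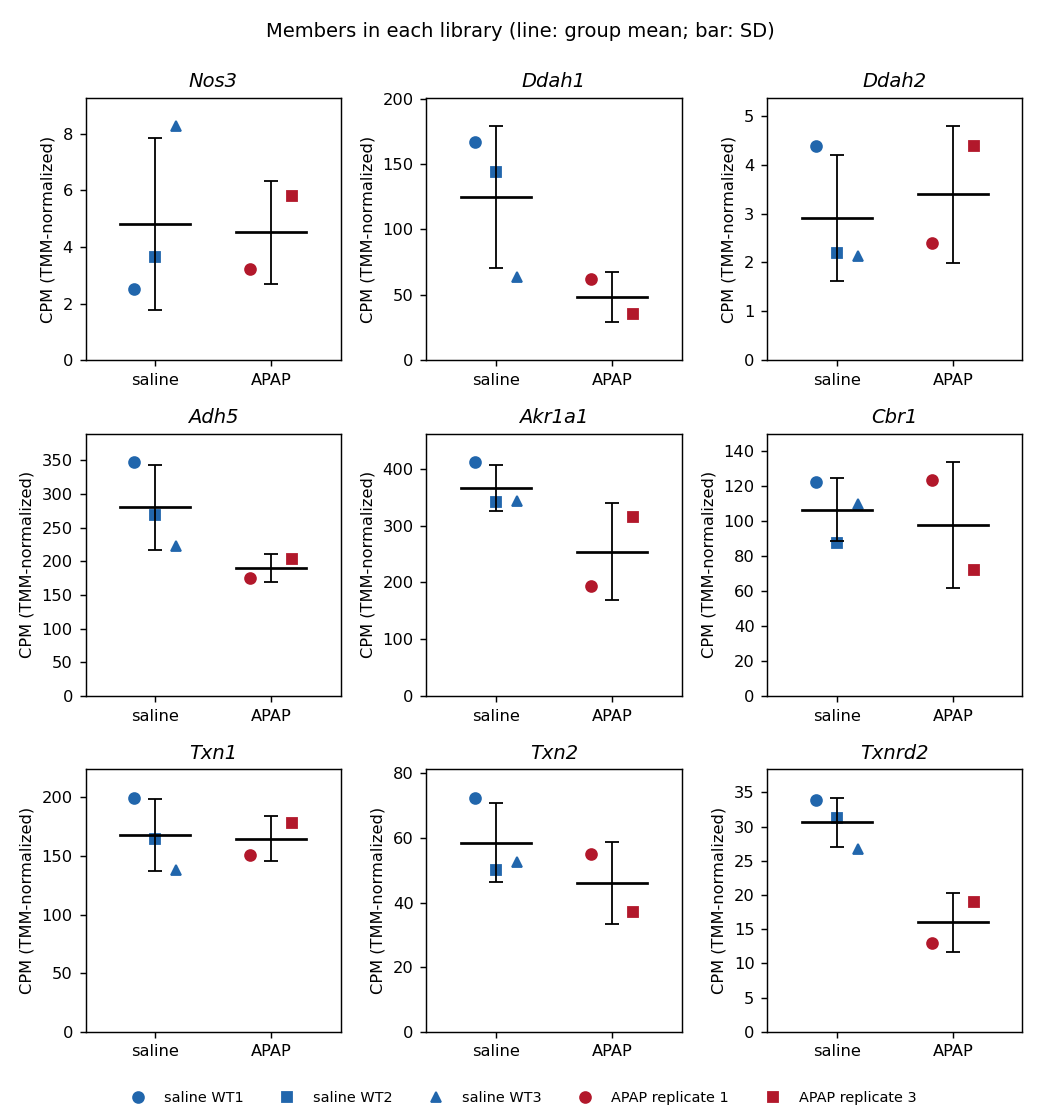
TMM-normalized CPM (vertical axis, starting at 0) of each of the 9 genes in the 3 saline and the 2 APAP libraries, with a line at the group mean and a bar for the SD. The groups are apart for Ddah1, Adh5, Akr1a1 and Txnrd2, with APAP lower, and overlap in the other panels.

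Nos3 (ENSMUSG00000028978, GRCm38 chromosome 5, 24364810 to 24384474, plus strand), the endothelial NO synthase, was read at 3.23 (replicate 1) and 5.81 CPM (replicate 3) in APAP, and in saline at 2.51 (WT1), 3.65 (WT2) and 8.28 CPM (WT3), the order kept for every gene that follows. The group ranges overlapped, with the lowest and the highest value both in saline. The means were 4.52 ± 1.82 CPM (SD, n = 2) in APAP and 4.82 ± 3.06 CPM (SD, n = 3) in saline. The log2 fold change of Nos3 was -0.10 ± 0.56 (SE) with a 95% interval from -1.43 to 1.23 and an adjusted p of 0.936 by edgeR, so the libraries leave a wide range of changes of Nos3 possible in either direction. Its sign depended on single libraries, with 0.54 when WT3 was left out, 0.27 when APAP replicate 1 was left out and -0.59 when APAP replicate 3 was left out. On the opposite strand, the antisense gene Gm15587 and Atg9b overlap 32.3% of the Nos3 exon bases, and the sources used here do not state a strand setting. Gm15587 had 4 counts in APAP replicate 1 and none in any other library, and Atg9b had at most 6 counts in any library, compared with 28 to 124 counts of Nos3.

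The endothelial markers gave the cells in which Nos3 is known to act. Their summed level was 229 and 327 CPM in APAP and 239.5 to 357 CPM in saline, and 0 of 12 markers passed the adjusted edgeR test. None of the 12 was at 0 in every library. Pecam1, an endothelial adhesion molecule, was at 11.3 and 25.8 CPM in APAP and between 18.2 and 18.9 CPM in saline. Cdh5, the cadherin of endothelial junctions, was at 14.4 and 31.0 CPM in APAP and between 14.7 and 20.97 CPM in saline. APAP replicate 1 was thus the lower APAP library for Nos3, Pecam1 and Cdh5 alike, and Kdr, the main receptor for vascular endothelial growth factor, showed the same order (12.8 and 27.8 CPM, with 13.2 to 38.4 CPM in saline). Stab2, a scavenger receptor of the sinusoid, differed little between the APAP libraries (39.3 and 34.99 CPM, with 24.3 to 40.6 CPM in saline). As a count ratio within each library, chosen after the values had been seen and not tested, Nos3 to Pecam1 was 0.286 and 0.225 in APAP and 0.133, 0.201 and 0.456 in saline. WT3 held the highest Nos3 count for each Pecam1 or Cdh5 count, and the groups overlapped in both ratios.

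The other NO synthases were near the floor of detection. Nos1, the neuronal enzyme, had 0 and 4 counts in APAP and 2, 12 and 22 counts in saline, with an adjusted edgeR p of 0.257. Nos2, the inducible enzyme of activated immune cells and stimulated hepatocytes, had 12 and 1 counts in APAP and 0, 1 and 4 counts in saline and did not pass the filter. Fitted without the filter, Nos2 had a log2 fold change of 1.65 ± 1.44 (SE) and an adjusted p of 0.587 by edgeR. The 12 counts stood in APAP replicate 1, where the summed neutrophil markers were also highest. The sum was 2156 CPM there, compared with 734 CPM in APAP replicate 3 and 14.2 to 69.9 CPM in saline. A single gene, Lcn2, made up most of it, at 2045 CPM in APAP replicate 1, 661 CPM in replicate 3 and 62.1 CPM in WT3. The other markers except Ly6g were also higher in APAP replicate 1 than in replicate 3, with S100a9 at 41.5 and 30.3 CPM. The part of neutrophils in the Nos2 counts was not tested. No NO synthase RNA was called different between the groups.

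Of the enzymes linked to ADMA breakdown, Ddah1 had the most negative fitted fold change of the 9 members and Ddah2 the only positive one. Ddah1 (ENSMUSG00000028194, chromosome 3, 145758675 to 145894277, plus strand) was at 62.0 and 35.05 CPM in APAP and at 167, 144 and 63.7 CPM in saline. Every APAP value was below every saline value, although WT3 was only just above APAP replicate 1. The means were 48.5 ± 19.1 CPM (SD, n = 2) and 125 ± 54.3 CPM (SD, n = 3), a ratio of 0.388. The log2 fold change of Ddah1 was -1.36 ± 0.47 (SE; 95% interval -2.47 to -0.26) with an adjusted p of 0.131 by edgeR. The calls of Ddah1 depended on several libraries. Its fold change was -1.02 when APAP replicate 3 was left out, -1.08 without WT1 and -1.25 without WT2, and in these fits it no longer met the rule of fold and unadjusted p, nor did it with library size only (-0.92). Without WT3, the saline library nearest to APAP, the fold change was -1.68 with an adjusted p of 0.0409 by edgeR, and DESeq2 on all 5 libraries gave -1.41 with an adjusted p of 0.0241.

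Ddah2 (ENSMUSG00000007039, chromosome 17, 35059035 to 35062095, plus strand) was read at low levels of 2.41 and 4.39 CPM in APAP and 4.39, 2.19 and 2.14 CPM in saline. The highest values of the groups were level, and the groups overlapped. Its log2 fold change was 0.23 ± 0.49 (SE; 95% interval -0.94 to 1.40, adjusted p = 0.816 by edgeR), and it was -0.27 without APAP replicate 3. Within each library Ddah1 exceeded Ddah2 per kilobase of exon, by 10.3 and 3.19 times in APAP and by 15.2, 26.3 and 11.9 times in saline. The log2 ratio of Ddah1 to Ddah2 was lower in APAP by a difference of -1.55, with no overlap. The exact two-sided permutation test gave p = 0.2, the smallest that 2 against 3 libraries allow, and 0.6 after adjustment over the 5 pairs of members compared.

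For GSNOR, both APAP values lay below all saline values, and the difference did not pass the test. Adh5 (ENSMUSG00000028138, chromosome 3, 138443093 to 138455499, plus strand) was at 175 and 204 CPM in APAP and at 348, 269 and 223 CPM in saline. The gap between the nearest libraries, APAP replicate 3 and WT3, was small beside the range within saline. The log2 fold change of Adh5 was -0.56 ± 0.27 (SE; 95% interval -1.21 to 0.08) with an adjusted p of 0.259 by edgeR. The upper end of the Adh5 interval lies just above 0, and leaving out single libraries moved the value between -0.70 and -0.37. With library size only, the Adh5 fold change was -0.16. The groups then overlapped, at 222.4 and 222.3 CPM in APAP and 209.2 to 272.0 CPM in saline.

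Of the other GSNO reductases, Akr1a1 lay below the saline range and Cbr1 spanned it. Akr1a1 (ENSMUSG00000028692, chromosome 4, 116636510 to 116651680, minus strand), an aldo-keto reductase that also makes vitamin C in mice, was at 194 and 315 CPM in APAP and at 413, 342 and 344 CPM in saline. APAP replicate 1 was far below saline and replicate 3 just below it. Akr1a1 had a log2 fold change of -0.52 ± 0.29 (SE; 95% interval -1.21 to 0.16, adjusted p = 0.319 by edgeR), with -0.21 when APAP replicate 1 was left out and -0.93 when APAP replicate 3 was left out. Cbr1 (ENSMUSG00000051483, chromosome 16, 93607837 to 93610505, plus strand), a carbonyl reductase, was at 123 and 72.2 CPM in APAP and at 122, 87.3 and 109.9 CPM in saline. Both the highest and the lowest Cbr1 value were in APAP. Cbr1 had a log2 fold change of -0.12 ± 0.30 (SE; 95% interval -0.83 to 0.58, adjusted p = 0.839 by edgeR), and it was 0.20 without APAP replicate 3. Thus Akr1a1 was higher in APAP replicate 3 and Cbr1 in APAP replicate 1, and no GSNO reductase RNA was higher in APAP beyond the spread of the libraries.

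Hepatocyte markers were read beside these reductases and Ddah1. The summed markers of pericentral hepatocytes, the cells around the central vein, were at 969.6 and 1858 CPM in APAP and between 7459 and 11981 CPM in saline, and 7 of 8 passed the adjusted edgeR test as lower. The summed periportal markers were at 2479 and 3991 CPM in APAP and between 6035 and 6386 CPM in saline, with 2 of 8 lower by the same test. Of these 8, 3 had positive and 5 negative fold changes, with 2 higher and 4 lower without overlap. Cdh1 was higher, at 99.5 and 56.5 CPM in APAP and 10.4 to 48.5 CPM in saline. Pck1 made up the largest part of the saline sums, at 3379 to 3878 CPM, and did not pass (adjusted p = 0.203 by edgeR). General hepatocyte markers summed to 76762 and 130315 CPM in APAP and to between 119519 and 162900 CPM in saline, which overlapped. Of these markers, 0 of 7 tested passed the adjusted edgeR test, with 3 positive and 4 negative fold changes. Without overlap, 4 of the 7 were lower and 1 higher (20.1% and 24.0% of all tested genes). Alb made up most of each sum and was lower in APAP, at 51544 and 89798 CPM, with 95101 to 129117 CPM in saline. Serpina1e was at 192 and 11519 CPM in APAP and between 595 and 663 CPM in saline, which raised the sum of APAP replicate 3. None of the hepatocyte, pericentral or periportal markers in the table was at 0 in every library. APAP replicate 1 was the lower library in all 3 sums and for Nos3, Ddah2, Adh5, Akr1a1, Txn1 and Txnrd2, but the higher for Ddah1, Cbr1 and Txn2. The part of these cells in the members' values was not tested.

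In the thioredoxin system the cytosolic thioredoxin lay within the saline range and the mitochondrial reductase below it. Txn1 (ENSMUSG00000028367, chromosome 4, 57943373 to 57956411, minus strand), which encodes the cytosolic thioredoxin, was at 151 and 178 CPM in APAP and at 199.8, 165 and 138 CPM in saline. The APAP values lay inside the saline range. Txn1 had a log2 fold change of -0.03 ± 0.25 (SE; 95% interval -0.61 to 0.56, adjusted p = 0.962 by edgeR), and it turned to 0.01 with upper-quartile factors and 0.37 with library size only.

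Txn2 (ENSMUSG00000005354, chromosome 15, 77915047 to 77929006, minus strand), the mitochondrial thioredoxin gene, was at 54.996 and 37.0 CPM in APAP and at 72.5, 50.2 and 52.7 CPM in saline. APAP replicate 1 lay inside the saline range and replicate 3 below it. Txn2 had a log2 fold change of -0.34 ± 0.27 (SE; 95% interval -0.99 to 0.30, adjusted p = 0.486 by edgeR), and it was 0.09 with library size only.

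Txnrd2 (ENSMUSG00000075704, chromosome 16, 18426384 to 18479073, plus strand), the selenoenzyme that recharges mitochondrial thioredoxin, was at 12.9 and 19.0 CPM in APAP and at 33.9, 31.3 and 26.8 CPM in saline. The groups did not overlap, and the gap between the nearest libraries was about as wide as the range within each group. The means were 15.98 ± 4.32 CPM (SD, n = 2) and 30.7 ± 3.59 CPM (SD, n = 3), a ratio of 0.521. The log2 fold change of Txnrd2 was -0.94 ± 0.25 (SE; 95% interval -1.53 to -0.35) with an adjusted p of 0.0716 by edgeR's quasi-likelihood test. It passed the adjusted threshold by edgeR's likelihood ratio test (adjusted p = 0.0336), its exact test (0.0369) and DESeq2 (0.0135). With library size only, Txnrd2 was still apart, at 16.4 and 20.7 CPM in APAP and 25.1 to 30.6 CPM in saline. Its log2 fold change was then -0.56 (adjusted p = 0.164 by edgeR), outside the rule of fold and unadjusted p. Txnrd2 did not pass the adjusted threshold without WT1 (-0.85, adjusted p = 0.128 by edgeR), WT2 (-0.93, 0.203) or WT3 (-1.03, 0.0752). The fold change was -0.68 when APAP replicate 1 was left out and -1.26 when APAP replicate 3 was left out.

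**Figure D2:**
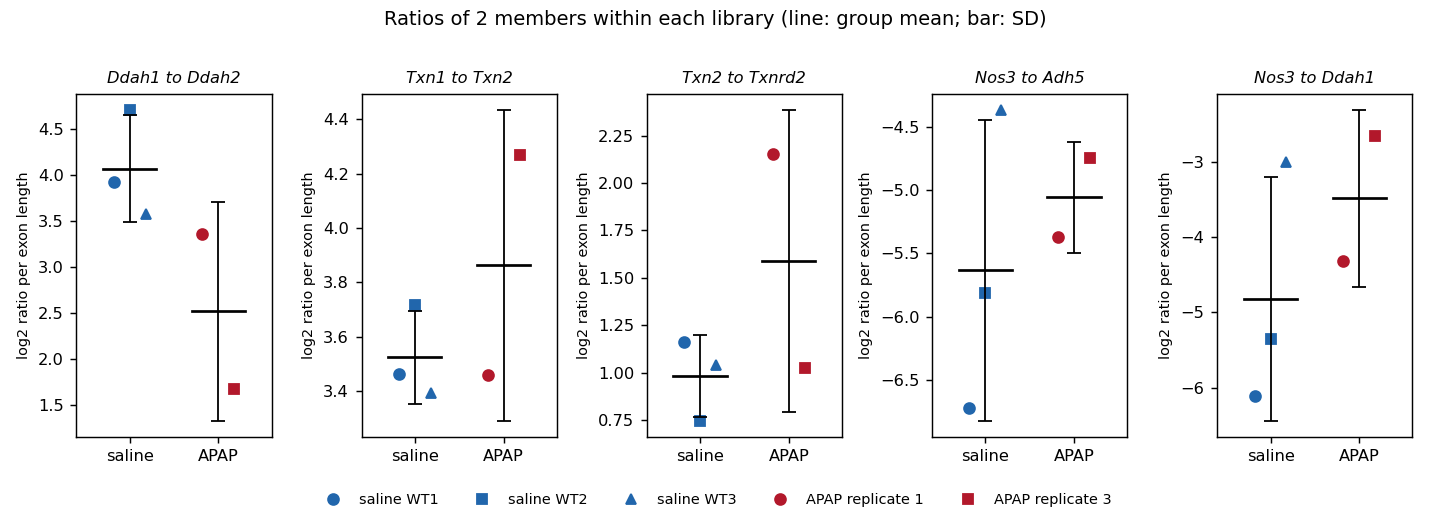
The log2 ratio of 2 members within each library, per exon length (vertical axis), for the 5 pairs compared in the 3 saline and 2 APAP libraries, with a line at the group mean and a bar for the SD. The groups are apart in Ddah1 to Ddah2 and overlap in the other 4 pairs.

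Ratios inside a library do not depend on the scaling between libraries. Txn1 exceeded Txn2 per kilobase of exon by 10.99 and 19.3 times in APAP and by 11.03, 13.2 and 10.5 times in saline. Txn2 exceeded Txnrd2 by 4.45 and 2.03 times in APAP and by 2.24, 1.68 and 2.06 times in saline. The differences in log2 ratio between APAP and saline were 0.34 for Txn1 to Txn2, 0.61 for Txn2 to Txnrd2 and 0.58 for Nos3 to Adh5 (exact permutation p = 0.6 each), and 1.34 for Nos3 to Ddah1 (exact permutation p = 0.4). All 4 overlapped between the groups. Each was 0.6 after adjustment over the 5 pairs by the exact permutation test.

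Txnrd1 and Cbr3, the nearest relatives of Txnrd2 and Cbr1 in the pathway list, were on the other side of 0. Txnrd1, the cytosolic thioredoxin reductase, was at 311 and 305 CPM in APAP and at 141, 149 and 182 CPM in saline. The groups were apart, with a log2 fold change of 0.97 ± 0.23 (SE; adjusted p = 0.0506 by edgeR), just outside the threshold. Txnrd1 passed it under 7 of 13 alternatives, among them edgeR's likelihood ratio test (adjusted p = 0.0184), its exact test (0.0188) and DESeq2 (0.000436), and it did not pass with size factors or with any library left out. Within a library there were 24.1 and 16 Txnrd1 counts for each Txnrd2 count in APAP and 4.16, 4.75 and 6.79 in saline. Cbr3, the second carbonyl reductase, rose from 3, 7 and 5 counts in saline to 144 and 67 counts in APAP, a log2 fold change of 4.10 ± 0.51 (SE; adjusted p = 0.00855 by edgeR). The count ratio of Cbr3 to Cbr1 was 0.0686 and 0.0574 in APAP and 0.00220 to 0.00533 in saline, so Cbr1 remained the more abundant of the pair in every library. These 2 ratios were chosen after the values had been seen, and no test was run on them.

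**Figure D3:**
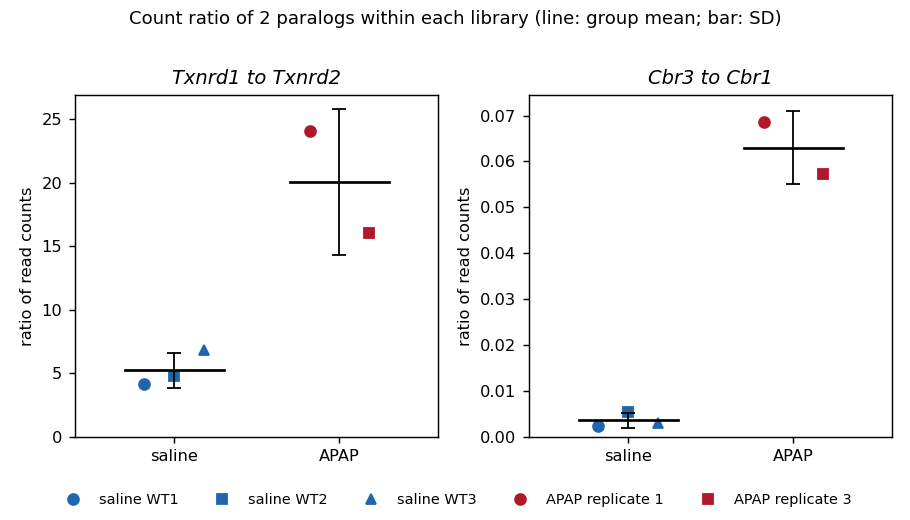
Ratio of read counts (vertical axis, starting at 0) of Txnrd1 to Txnrd2 and of Cbr3 to Cbr1 in the 3 saline and 2 APAP libraries, with a line at the group mean and a bar for the SD. The mean of Txnrd1 to Txnrd2 is 20.0 in APAP and 5.24 in saline, and the groups are apart in both panels.

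The order of the levels was nearly the same in both groups when CPM were divided by the exon length in kilobases. Txn1 was highest in saline with 159 ± 29.4 CPM per kilobase (SD, n = 3), and Akr1a1 followed with 133 ± 14.7. Adh5 (51.8 ± 11.6), Cbr1 (41.7 ± 6.97) and Ddah1 (31.4 ± 13.6) came next, then Txn2 (13.9 ± 2.91) and Txnrd2 (6.96 ± 0.815), and Ddah2 (1.83 ± 0.807) and Nos3 (1.17 ± 0.740) were lowest. The saline ranges of Txn1 and Akr1a1 overlapped, as did each neighbouring pair from Adh5 down to Txn2, and Ddah2 and Nos3. Ranges were apart between Akr1a1 and Adh5, between Txn2 and Txnrd2 and between Txnrd2 and Ddah2. In APAP the means ran from 157 CPM per kilobase for Txn1 to 1.09 for Nos3. The order differed there only in Cbr1 (38.3) and Adh5 (35.02), which changed places and overlapped, and Ddah1 (12.2) lay close to Txn2 (10.9), with overlapping ranges. The exon length covers the exons of all annotated isoforms, so a gene with long minor isoforms reads low on this scale. For Adh5 it was 5408 bases, with a longest coding transcript of 1604 bases, and for Akr1a1 2750 and 1420 bases. For Txn1 both lengths were 1051 bases, so the places of Txn1, Akr1a1 and Adh5 depend on the length used. The size of the ratios per kilobase, though not their difference between groups, has the same limit.

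**Figure D4:**
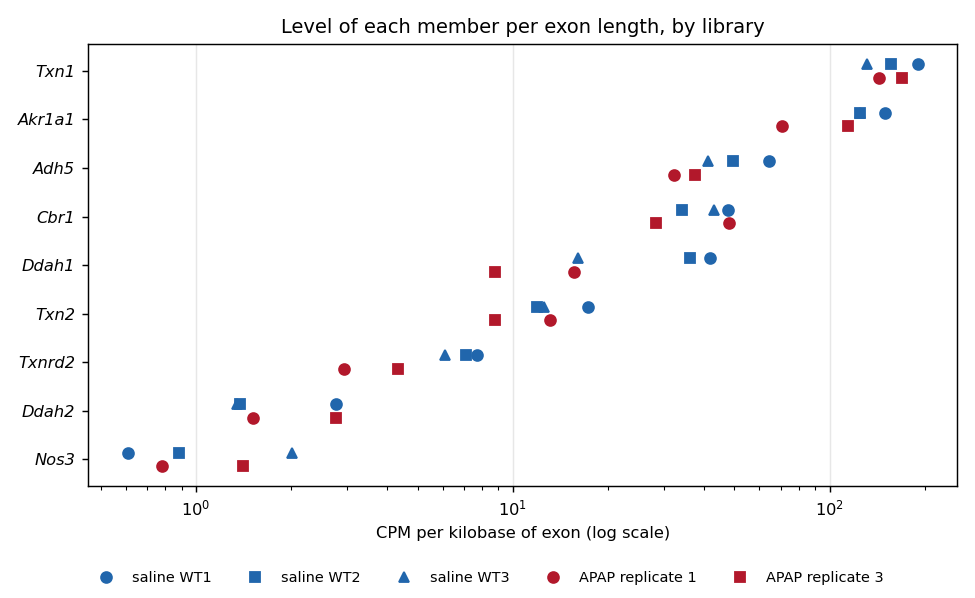
Level of each of the 9 genes as TMM-normalized CPM per kilobase of exon (horizontal log axis) in each of the 3 saline and 2 APAP libraries, 1 symbol per library. Saline means run from 1.17 for Nos3 to 159 for Txn1.

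The pathway around the 9 enzymes was read from a list of 47 further genes grouped by role, of which 46 were tested. At an adjusted p under 0.05 by edgeR, 6 of the 46 rose and 3 fell, compared with 3.70% and 3.53% of all tested genes. The median log2 fold change of the list was 0.18. The counts moved with the processing, with 11 genes higher by library size only and between 2 and 5 when a library was left out, down to 3 without APAP replicate 1 and 2 without WT2. The count of lower genes was 0 without APAP replicate 1, without APAP replicate 3 or without WT2, 2 without WT1 and 5 without WT3. Of the 9 genes that passed, Srxn1 alone kept its call with each library left out. The call was lost for Cbr3 without APAP replicate 1 (adjusted p = 0.0705 by edgeR), for Hsp90aa1 and Dynll1 without WT2 (0.0731 and 0.0517), and for Gsr, Ass1, Qdpr and Pts without either APAP library or without WT2. Pts also lost it without WT1 (0.0594) and with library size only (0.0977).

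The pathway genes that passed the test as lower were in cofactor and substrate supply. Tetrahydrobiopterin is the cofactor that NO synthases and phenylalanine hydroxylase need, and all 6 genes of its synthesis, recycling and feedback had negative fold changes, of which 2 passed the test (3.53% of all tested genes fell) and 4 were lower without overlap (20.1% of all tested genes). Qdpr, which recycles the cofactor, was at 85.1 and 70.7 CPM in APAP and 402, 214 and 204 CPM in saline, and fell by 1.81 ± 0.38 (SE) on the log2 scale (adjusted p = 0.0379 by edgeR). A gene on the opposite strand, Gm42413, overlaps 18.6% of the Qdpr exon bases. Pts, a synthesis enzyme, was at 13.5 and 14.2 CPM in APAP and 32.0, 28.2 and 26.5 CPM in saline, and fell by 1.06 ± 0.20 (SE; adjusted p = 0.0304 by edgeR). Of 6 genes of arginine transport and recycling, 3 had positive and 3 negative fold changes, and only Ass1 passed the test. Slc7a1, an arginine transporter gene, was higher without overlap, at 3.82 and 4.02 CPM in APAP and 1.43, 0.930 and 0.668 CPM in saline. Its log2 fold change was 1.96 ± 0.47 (SE; adjusted p = 0.0529 by edgeR). Ass1, which starts the remaking of arginine from citrulline and also serves the urea cycle, was at 422 and 466 CPM in APAP and 1669, 1430 and 1306 CPM in saline, and fell by 1.72 ± 0.29 (SE; adjusted p = 0.0201 by edgeR). Reads of Ass1 could be split with a near-identical copy, since other genes, mostly Gm5424, hold 55.3% of its 50-base words.

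Genes of ADMA formation and of partners of NO synthases were higher where they passed the test. Prmt3, an arginine methyltransferase, was at 15.8 and 17.5 CPM in APAP and between 7.80 and 9.15 CPM in saline. It rose by 0.98 ± 0.22 (SE) on the log2 scale (adjusted p = 0.0443 by edgeR). Prmt3 was the only one of 5 genes of ADMA formation and transamination to pass, compared with 3.70% of all tested genes that rose. This call was lost with each library left out in turn, at adjusted p between 0.0625 and 0.188 by edgeR. Of 6 genes for partners of NO synthases, 2 rose and the other 4 did not pass, compared with 3.70% of all tested genes that rose. Hsp90aa1, a chaperone that binds endothelial NO synthase and many other proteins, was at 476 and 868 CPM in APAP and at 60.1, 68.5 and 121 CPM in saline, with a log2 fold change of 3.01 ± 0.41 (SE; adjusted p = 0.0117 by edgeR). Reads of Hsp90aa1 could be split with copies, because other genes hold 58.5% of its 50-base words. Dynll1, a dynein light chain that binds neuronal NO synthase, rose by 1.95 ± 0.23 (SE; adjusted p = 0.00705 by edgeR). None of the 4 genes of the NO receptor and its cGMP signal passed the test by edgeR, and 0 of them met the fold and unadjusted p rule.

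Among the redox partners of the denitrosylating enzymes, the genes that passed the test were all higher in APAP. In the glutathione and formaldehyde route, 2 of 7 genes rose, Cbr3 and Gsr, compared with 3.70% of all tested genes that rose. Gsr, which reduces oxidized glutathione, was at 178 and 156 CPM in APAP and at 73.1, 64.8 and 66.1 CPM in saline, with a log2 fold change of 1.30 ± 0.20 (SE; adjusted p = 0.0167 by edgeR). In the thioredoxin and glutaredoxin list, 1 of 11 genes passed the test, compared with 7.23% of all tested genes. This was Srxn1, the sulfiredoxin that repairs overoxidized peroxiredoxins, at 941 and 598 CPM in APAP and 44.3, 47.1 and 45.3 CPM in saline, a log2 fold change of 4.08 ± 0.29 (SE; adjusted p = 0.00181 by edgeR). Txnip, which binds and inhibits thioredoxin, had a log2 fold change of 0.22 ± 0.47 (SE; adjusted p = 0.816 by edgeR). In the thioredoxin and glutaredoxin list, 3 genes were higher and 3 lower without overlap (24.0% and 20.1% of all tested genes). Among the lower genes, Glrx2 met the fold and unadjusted p rule, with a log2 fold change of -0.72 ± 0.24 (SE; adjusted p = 0.117 by edgeR).

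**Figure D5:**
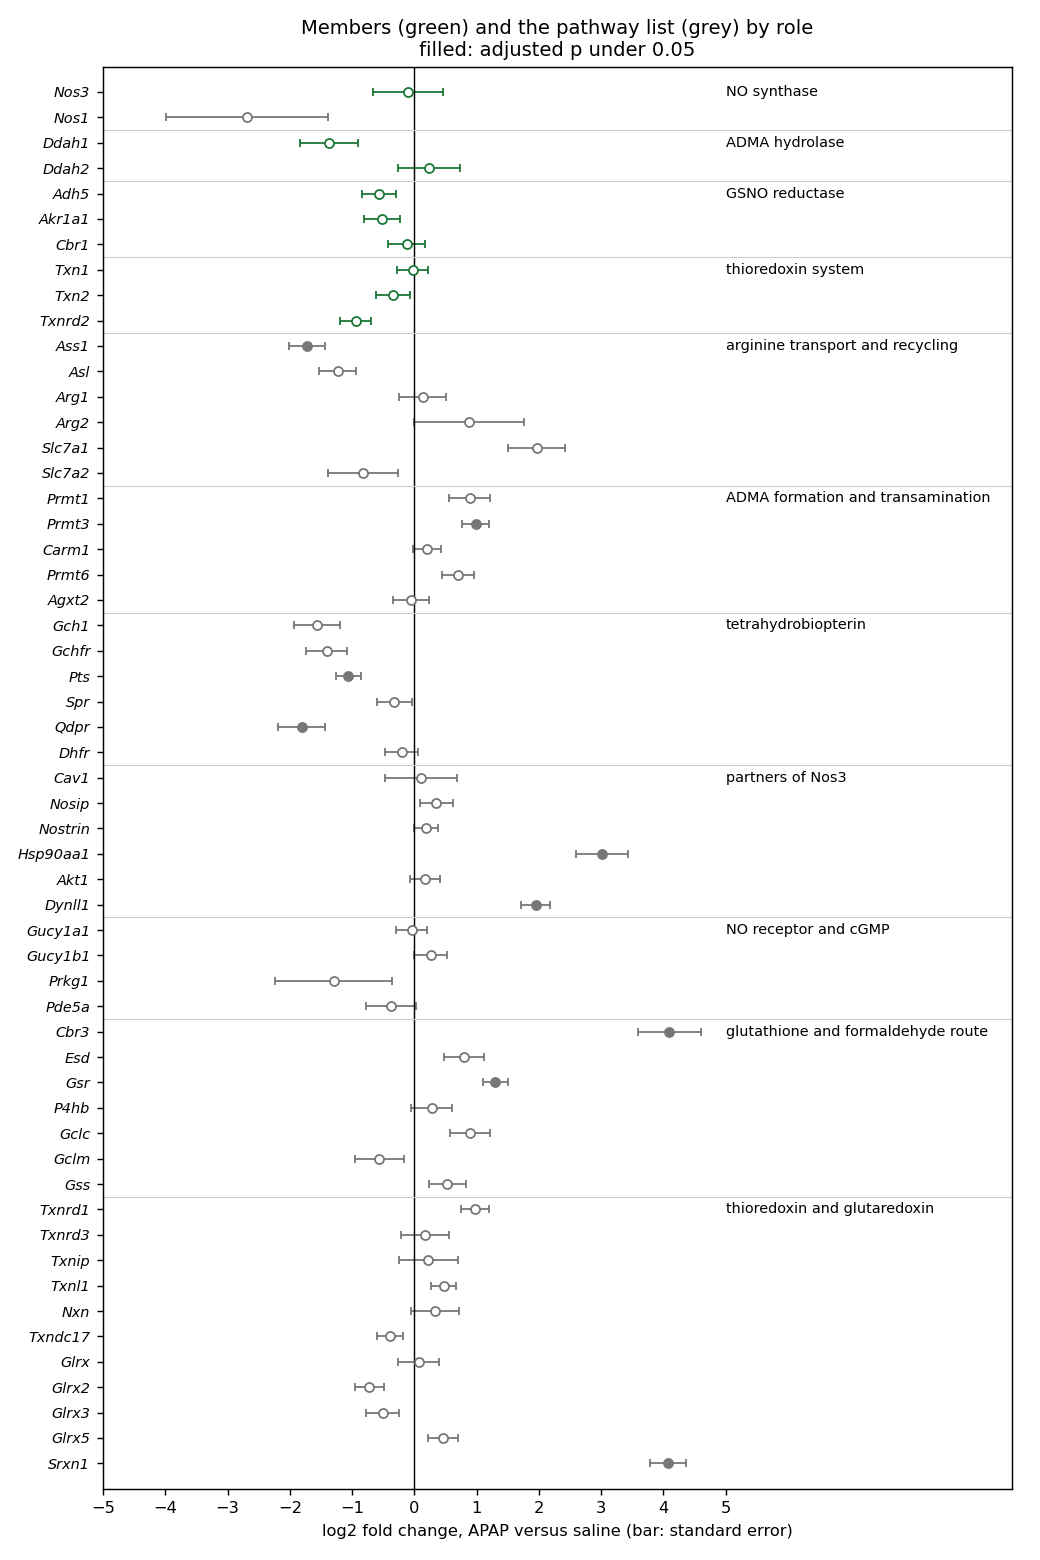
Fitted log2 fold change of APAP over saline (horizontal axis, with a bar for the standard error) for the 9 members in green and the 46 tested pathway genes in grey, grouped by role. Filled symbols mark an adjusted p under 0.05, which 9 pathway genes and 0 members reach.

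The genes with the profile nearest to that of Nos3 and of Adh5 were found by the Euclidean distance between centred log2(CPM + 1) values over the 5 libraries. For Nos3 they were Rbbp8 (distance 0.131), Fam57b (0.203), Mzf1 (0.220), Ankrd12 (0.252) and Ccdc148 (0.271). Rbbp8 was at 9.22 and 15.9 CPM in APAP and 8.43, 10.3 and 21.4 CPM in saline, with WT3 highest as for Nos3. For Adh5 they were Mrpl28 (0.0537), Mpst (0.0741), Usp4 (0.0873), Ccrl2 (0.0883) and March8 (0.0894). Mpst was at 35.5 and 40.4 CPM in APAP and 72.6, 54.0 and 43.3 CPM in saline, the same order of libraries as Adh5. These distances rest on 5 libraries and describe likeness only.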

How the data were processed

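Liver RNA libraries were prepared with an oligo(dT)-primed SMARTER kit and sequenced on an Illumina NovaSeq. Reads were aligned by the authors with HISAT2, and the deposited values are raw counts per gene. The submitters' processing notes name GRCm38 and mm10, and the strand setting is not given in the sources used here. Of 34745 identifiers, 34267 were found in GENCODE M21. The 5 columns of normalized values and the authors' own comparison were not used.

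The test was run in edgeR 4.0.16 under R 4.3.3 (filterByExpr, minimum count 10 and minimum total 15, 13734 genes kept; TMM; glmQLFit and glmQLFTest; Benjamini-Hochberg over all tested genes). The spread was estimated from 3 residual degrees of freedom. Libraries held from 13378445 to 15976339 counts. The floor of 3 counts covers counting error only. Replicates differed by more than counting noise. Ratios of members were compared by the exact permutation test (SciPy 1.17.1). DESeq2 1.42.0 and the other alternatives are described at the end, and the code was tested on simulated data.

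The members and gene lists were chosen with earlier results of these data known. Named were all members, Nos1, Nos2, Txnrd1, Txnip, each pathway gene with an adjusted p under 0.05, the 5 nearest profiles of Nos3 and Adh5, Xist, Ddx3y, Alb and 4 endothelial markers. Genes named for overlapping or shared sequence were added after their values were seen. Shared sequence was the percent of the 50-base words of the longest coding transcript found in other genes. Promoter windows are from RefSeq.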

Additional observations from a re-analysis of the deposited data

How the results depend on the processing

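Only 2 APAP libraries were analysed, and leaving one out leaves a single APAP library whose spread is assumed to equal that of saline. No paired analysis was possible because the saline columns carry WT names that do not match the numbered saline samples. Of the member fold changes refitted under 13 alternatives, 100 kept direction and call, 5 came to pass the adjusted threshold and 12 changed sign. Members lower at an adjusted p under 0.05 numbered 0 by the quasi-likelihood test, 1 by the likelihood ratio test, 1 by the exact test of edgeR, 2 by DESeq2 and 0 to 1 with a library left out (1 without saline WT3). Members lower at a fold of 1.5 and unadjusted p under 0.05 numbered 2, with 0 by library size only and 1 to 3 with a library left out (1 without APAP replicate 1, WT1 or WT2, 3 without WT3). No member was higher by either rule in any alternative.

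The pathway count was 6 higher and 3 lower. It was 11 higher by library size only, 2 to 5 higher and 0 to 5 lower with a library left out, and 6 lower by the likelihood ratio test, the exact test, DESeq2, no filter, or at least 10 counts in every library. Txnrd2 passed with -0.94 by the likelihood ratio and exact tests and -0.98 by DESeq2. Ddah1 passed with -1.41 by DESeq2 and -1.68 without WT3. Library size only gave Nos3 0.23, Cbr1 0.31, Txn1 0.37 and Txn2 0.093, and upper-quartile factors gave Txn1 0.0084, all of opposite sign to the reported values. By library size only, 77.82% of the adjusted calls were higher, compared with 51.16% by TMM. With a library left out, log2 fold changes ran from -0.59 to 0.54 for Nos3, -0.56 to 0.20 for Cbr1, -0.16 to 0.13 for Txn1, -0.27 to 0.66 for Ddah2, -1.83 to -1.02 for Ddah1, -1.26 to -0.68 for Txnrd2, and -0.045 to 0.87 for Txnip. The log2 ratio of Txn1 to Txn2 ran from -0.067 to 0.74 and that of Ddah1 to Ddah2 from -2.40 to -0.71. The cause of these moves was not tested.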
